A study of Mus musculus with 2 samples.

Results

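The genes described here set the chloride content of neurons and the kinases that control them: 4 cation-chloride cotransporters (Slc12a2, Slc12a5, Slc12a4 and Slc12a7), 3 WNK kinases (Wnk1, Wnk2 and Wnk3) and the kinases SPAK and OSR1 (Stk39 and Oxsr1). They were taken by symbol, and all 9 were found among 55536 annotated genes, of which 22015 are nuclear protein-coding genes. Total RNA of mouse hippocampus was sequenced in 2 libraries from 300 ng of RNA each, with ERCC spike-ins of a profile for libraries reduced in ribosomal RNA. The tissue label speaks of a layer of the hippocampus without naming it. Both come from female B6CASTF1/J mice aged 2 months with no treatment named, first-generation hybrids of C57BL/6J and CAST/EiJ, so there is 1 group and no contrast of conditions. The labels name them biological replicates 1 and 2 and give a separate tissue record to each. Because the donor record is the same for both, the spread between them may be technical in part. With 2 libraries of 1 group no p-value was computed, and errors are the SD over these libraries.

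Fast inhibition in the brain works through chloride channels, chiefly GABA-A receptors, so its strength and sign depend on the chloride gradient across the neuronal membrane. NKCC1, made from Slc12a2, brings chloride in with sodium and potassium, whereas KCC2, the neuronal product of Slc12a5, carries chloride out with potassium. WNK kinases sense chloride and cell volume; when chloride is low they activate SPAK and OSR1, which phosphorylate both kinds of cotransporter, switching NKCC1 on and the KCC proteins off. A rise of KCC2 against NKCC1 during postnatal life is the textbook basis of hyperpolarizing GABA responses in the mature hippocampus.

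Slc12a5 has a pair of alternative first exons, which give the KCC2a and KCC2b proteins, and the coding part of exon 1a is shown because the isoform measurements below turn on the first exon. It is given 5′ to 3′ on the + strand of mm10 (chr2:164960883-164961003), from GENCODE M21 transcripts, with its docking codons in capitals.
Slc12a5 exon 1a: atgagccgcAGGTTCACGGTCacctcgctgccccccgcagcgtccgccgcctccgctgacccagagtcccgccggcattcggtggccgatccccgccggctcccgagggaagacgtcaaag

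The capitals in exon 1a spell codons for arginine, phenylalanine, any residue, then valine or isoleucine, the pattern through which WNK kinases and cotransporters dock to SPAK and OSR1. It begins at codon 4 of the exon 1a forms, and no such run occurs anywhere in the exon 1b form Slc12a5-201. Reading the longest complete coding sequence of each gene in frame, the pattern was found 5 times in Wnk1, 2 times in Wnk2, 3 times in Wnk3 and 2 times in Slc12a2. It was absent from Slc12a4, Slc12a7, Stk39 and Oxsr1. Of 21493 protein-coding genes, 8.58% hold it at least once, and a match is a description of these letters, not evidence of binding.

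The stretches around the catalytic site show what separates the kinases. In WNK kinases ("with no lysine") a cysteine stands where most protein kinases keep the ATP-binding lysine; SPAK and OSR1 keep the lysine. Each line has 51 bases of coding sequence with that cysteine or lysine codon in capitals.
Wnk1: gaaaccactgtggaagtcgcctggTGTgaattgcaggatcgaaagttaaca
Wnk2: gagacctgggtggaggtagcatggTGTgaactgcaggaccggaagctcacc
Wnk3: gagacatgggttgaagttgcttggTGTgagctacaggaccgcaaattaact
Stk39: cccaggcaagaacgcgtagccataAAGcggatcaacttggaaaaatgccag
Oxsr1: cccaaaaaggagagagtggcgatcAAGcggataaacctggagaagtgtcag

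The cysteine codon is number 250 in Wnk1, 224 in Wnk2 and 175 in Wnk3, and the lysine codon is number 104 in Stk39 and 46 in Oxsr1. Within these stretches Wnk1 and Wnk2 share 38 of 51 bases and Stk39 and Oxsr1 share 36, while a WNK gene and Stk39 or Oxsr1 share 12 to 16. The extruders carry a target of the pathway, not necessarily the only one: a C-terminal threonine whose phosphorylation inhibits KCC transport. Which kinase phosphorylates this threonine is not shown by these data. Its codon is in capitals below.
Slc12a5: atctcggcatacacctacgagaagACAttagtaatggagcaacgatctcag
Slc12a4: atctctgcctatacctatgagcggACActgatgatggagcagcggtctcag
Slc12a7: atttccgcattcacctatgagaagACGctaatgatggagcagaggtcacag

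That threonine is codon 906 of Slc12a5-201, codon 926 of Slc12a4-202 and codon 926 of Slc12a7-201, and any pair of the 3 stretches shares 39 or 40 of 51 bases.

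Slc12a5 stood far above every other gene of the set, at 162 ± 3.50 TPM (SD, n = 2), and Slc12a7 was the lowest, at 3.10 ± 0.424 TPM. TPM, the abundance of a gene's transcripts among all transcripts on a fixed total, is corrected by the authors for transcript length, so genes can be compared within a library. Each of the 9 genes reached 1 TPM in both libraries, the level called detected here, against 58.0% of nuclear protein-coding genes (12773 of 22015). A further deposited table, called the second quantification, gave higher TPM than the first for 9 of 9 genes. It was a median of 1.71-fold higher over 12766 detected protein-coding genes, so this is not particular to the set. Levels are therefore compared only within a table.

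**Figure D1:**
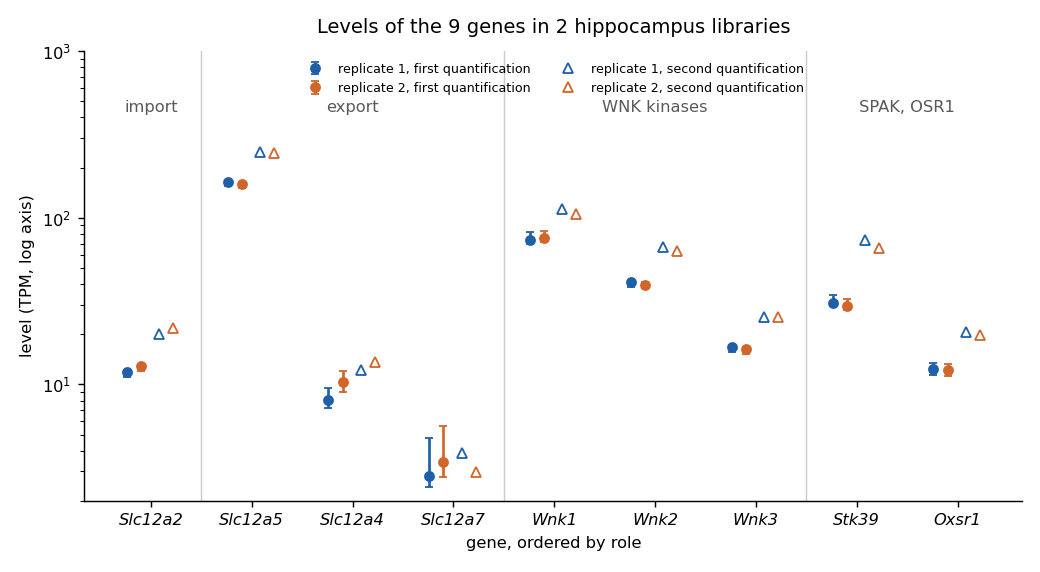
Level of each gene in TPM (log axis) in replicate 1 and replicate 2, with the authors' interval as bars for the first quantification (circles); triangles give the second quantification. Slc12a5 lies between 159.69 and 164.64 TPM in the first quantification and above every other gene in both.

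The importer gene Slc12a2 (ENSMUSG00000024597.11, chromosome 18, 57878678 to 57946821, + strand) had 11.9 TPM in replicate 1 and 12.94 TPM in replicate 2, from 1639 and 1860 expected counts. Its mean of 12.4 ± 0.735 TPM placed it above 68.0% of nuclear protein-coding genes. Of its 2 annotated transcripts, Slc12a2-201, with 27 exons, held 96.5 ± 0.548% of its TPM, and the retained-intron transcript Slc12a2-202 held 3.48 ± 0.548%. Only annotated transcripts receive TPM, so a form outside the annotation cannot appear in these shares. NKCC1 is also abundant in choroid plexus epithelium and in oligodendrocyte-lineage cells. The summed level of 6 choroid plexus markers was 128.46 TPM in replicate 1 and 71.79 TPM in replicate 2, of which Ttr alone gave 120.94 and 65.68 TPM, and 2 of the 6 were detected in both libraries. The 5 oligodendrocyte markers summed to 873.54 TPM in replicate 1 and 965.5 TPM in replicate 2. By the ratio of expected counts scaled by library size, Slc12a2 was higher in replicate 2, as were all 5 oligodendrocyte markers. So were 4 of 5 astrocyte markers, 4 of 5 dentate granule cell markers and all 3 blood markers. All 4 microglia markers and 5 of 6 GABAergic neuron markers were higher in replicate 1. The median of this ratio (log2) over all genes tested was 0.01, so lying on either side is common. By that ratio 2 of 3 oligodendrocyte precursor markers were higher in replicate 1, though their TPM summed to 77.58 in replicate 1 and 84.11 in replicate 2. The choroid plexus sum was higher in replicate 1. The part of any cell type in the level of Slc12a2 was not tested. In tissue RNA, fewer cells of a type and less RNA per cell cannot be told apart.

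Slc12a5 (ENSMUSG00000017740.17, chromosome 2, 164960802 to 164999731, + strand), the neuronal chloride extruder, had 164.64 TPM in replicate 1 and 159.69 TPM in replicate 2, from 14512 and 14280 expected counts. It ranked 352 among nuclear protein-coding genes, above 98.4% of them. Within a library it stood 13.1-fold above Slc12a2, a log2 ratio of 3.71 ± 0.12 that was 3.79 in replicate 1 and 3.63 in replicate 2. Slc12a5 thus made up 92.9 ± 0.534% of the summed TPM of Slc12a5 and Slc12a2, without the other extruder genes. A ratio is called larger than the spread where its sign is the same in both libraries and its size is over 3 SD, and this one was. The log2 ratio was 3.04 from counts not scaled by length and 3.10 on complete coding transcripts, those with at least 75% of the gene's longest coding length. Measures on such transcripts, or over their length, were chosen after the data were seen.

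The leading Slc12a5 transcript was Slc12a5-201, which starts at exon 1b, with 68.95 TPM in replicate 1 and 59.99 TPM in replicate 2, or 39.7 ± 3.05% of the gene. Next came Slc12a5-208, a shortened transcript with the same first exon and 693 coding bases, at 23.3 ± 3.06% (6.92 ± 4.37% in the second quantification), and Slc12a5-207, a complete form from exon 1a, at 18.6 ± 1.54%. Transcripts with an exon 1a start made up 27.4 ± 1.22% of those whose start is known (26.5% in replicate 1, 28.3% in replicate 2). The second quantification put this share at 33.5 ± 1.82%. Among the 3 complete coding transcripts only, the exon 1a share was 37.5 ± 2.86%, and 35.1 ± 1.95% in the second quantification. Exon 1b starts were the larger part under each of these measures.

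The tables differ in which exon 1a transcript carries these reads. Slc12a5-207 held 18.6 ± 1.54% of the gene in the first quantification and 3.41 ± 0.939% in the second, and Slc12a5-209 held 5.18 ± 0.459% in the first and 23.1 ± 0.869% in the second. These transcripts share exon 1a and differ by an exon of 15 bases and by their 3′ end. Their sum moved less than either.

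**Figure D2:**
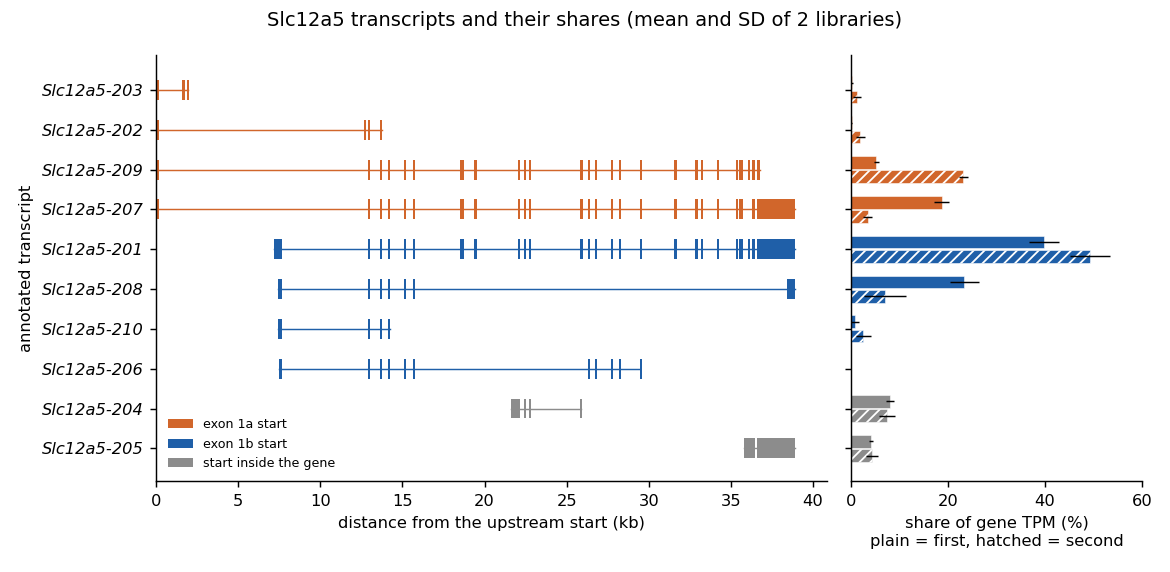
Left, exons of the 10 annotated Slc12a5 transcripts by distance from the upstream start in kb, coloured by first exon; right, each transcript's share of the gene's TPM (bars, mean; lines, SD over 2 libraries), plain for the first and hatched for the second quantification. Slc12a5-201 leads in both at 39.7 and 49.3%, and the exon 1a share sits mainly on Slc12a5-207 in the first and on Slc12a5-209 in the second.

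The starts lie 7181 bases apart, and the sequence just before each is given because the isoform shares are counted by start site. The 206 bases before the upstream start are chr2:164960596-164960801 and the 245 bases before the downstream start are chr2:164967738-164967982, both + strand and credited to RefSeq, GRCm38.p6. The capitals in the second mark CACGTG, an E-box of the kind that USF proteins bind in the KCC2b promoter.
Slc12a5 upstream promoter: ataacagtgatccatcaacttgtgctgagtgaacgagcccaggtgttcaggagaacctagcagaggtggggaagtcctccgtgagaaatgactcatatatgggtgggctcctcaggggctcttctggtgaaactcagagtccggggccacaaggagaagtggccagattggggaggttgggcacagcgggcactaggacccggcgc
Slc12a5 downstream promoter: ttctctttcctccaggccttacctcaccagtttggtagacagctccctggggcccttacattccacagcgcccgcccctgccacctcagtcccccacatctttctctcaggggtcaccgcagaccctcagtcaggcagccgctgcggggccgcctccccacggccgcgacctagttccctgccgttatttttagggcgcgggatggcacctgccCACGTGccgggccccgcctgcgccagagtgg

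CACGTG reads the same on both strands and was found in 7.15% of 32851 RefSeq promoter windows of 300 bases. Of the 10 windows matched to 8 of the 9 genes, 3 held it: the downstream window of Slc12a5 and 2 overlapping windows of Slc12a7. A missing match says only that these letters are not in the window.

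The other extruders of the set are the widely expressed KCC1 and KCC4. Slc12a4 (KCC1; ENSMUSG00000017765.17, chromosome 8, 105943590 to 105966097, - strand) had 8.01 TPM in replicate 1 and 10.38 TPM in replicate 2. Its expected counts of 568 and 645 differed less than its TPM, because the authors' effective length for the gene was 3264.58 bases in replicate 1 and 2747.98 bases in replicate 2. Slc12a4-205, a retained-intron transcript of 461 bases, had 0.51 TPM in replicate 1 and 1.68 TPM in replicate 2. Slc12a7 (KCC4; ENSMUSG00000017756.9, chromosome 13, 73733094 to 73816754, + strand) had 2.80 TPM in replicate 1 and 3.40 TPM in replicate 2, from 169 and 162 expected counts. It was above 49.6% of nuclear protein-coding genes, and its authors' intervals were the widest relative to the value, 2.43 to 4.78 TPM in replicate 1 and 2.79 to 5.62 TPM in replicate 2.

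Slc12a5 exceeded Slc12a4 by 17.8-fold within a library, a log2 ratio of 4.15 ± 0.30. Slc12a7 was lower than Slc12a4 by 2.96-fold, a log2 ratio of -1.56 ± 0.07. Both ratios passed 3 SD. On complete coding transcripts the log2 ratio of Slc12a7 over Slc12a4 was -2.69, and from counts over coding transcript length it was -2.30.

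The leading transcript differed between the tables for both of these low extruders. For Slc12a4 the first quantification put 77.2 ± 7.74% on Slc12a4-202 and 2.50 ± 3.53% on Slc12a4-201, and the second put 43.5 ± 6.35% and 48.1 ± 7.97% on them. They have the same number of exons, 24, and coding lengths of 3255 and 3261 bases. For Slc12a7 the leading transcript of the first quantification was Slc12a7-206, a retained-intron fragment of 356 bases with 39.5 ± 15.1% of the gene, and the second gave it 0. The complete coding transcript Slc12a7-201 held 37.1 ± 11.4% in the first and 53.6 ± 6.41% in the second. Coding Slc12a7 thus stood at 1.27 TPM in replicate 1 and 0.99 TPM in replicate 2 in the first quantification. In the second it stood at 1.90 and 1.72 TPM.

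Among the chloride-sensing kinases, Wnk1 (ENSMUSG00000045962.16, chromosome 6, 119923969 to 120038672, - strand) had 73.79 TPM in replicate 1 and 75.65 TPM in replicate 2, from 7477 and 8195 expected counts. Wnk2 (ENSMUSG00000037989.15, chromosome 13, 49036303 to 49148014, - strand), the WNK enriched in neurons, had 41.1 TPM in replicate 1 and 39.48 TPM in replicate 2. Wnk3 (ENSMUSG00000041245.13, chromosome X, 151198078 to 151320152, + strand), which can activate NKCC1 and inhibit KCC2, had 16.68 TPM in replicate 1 and 16.25 TPM in replicate 2. The libraries did not overlap between these genes. By gene TPM, Wnk2 was lower than Wnk1 by 1.85-fold (log2 ratio -0.89 ± 0.07) and Wnk3 was lower than Wnk1 by 4.54-fold (log2 ratio -2.18 ± 0.05), and both passed 3 SD. Of the 136 ± 0.283 TPM summed over WNK genes, Wnk1 gave 55.1 ± 0.855%, Wnk2 29.7 ± 0.907%, Wnk3 12.1 ± 0.250% and Wnk4, which is not in the set, 3.03 ± 0.301%.

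The order of Wnk1 and Wnk2 rested on what was counted as Wnk1. Complete coding transcripts held 35.4 ± 0.595% of Wnk1 TPM and 73.3 ± 0.522% of Wnk2 TPM. They are 5 of 26 annotated transcripts for Wnk1 and 8 of 11 for Wnk2, so these shares depend on the annotation. On those transcripts alone, Wnk2 had 29.97 TPM in replicate 1 and 29.08 TPM in replicate 2, and Wnk1 had 25.78 and 27.07 TPM. The log2 ratio of Wnk2 over Wnk1 was then 0.16 ± 0.08, of the opposite sign and not past 3 SD. That of Wnk3 over Wnk1 was -1.43 on these transcripts and -1.52 from counts over coding transcript length, with the same sign as by gene TPM. The rest of Wnk1 lay on partial coding, retained-intron and other transcripts, led by Wnk1-216, of 843 bases, at 16.7 ± 0.343% of the gene, and by the retained-intron transcript Wnk1-208 at 15.0 ± 1.30%, which the second quantification put at 1.26 ± 0.774%.

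Wnk1 isoforms differ in ways known from nervous tissue and kidney. Wnk1-202, without the HSN2 exon, led in both tables, at 24.9 ± 0.744% of the gene in the first quantification and 25.6 ± 0.300% in the second. The HSN2 exon (chromosome 6, 119962397 to 119963632, 1236 bases), a nervous-system exon whose human counterpart is mutated in a hereditary sensory neuropathy, is carried by the complete coding transcripts Wnk1-203 and Wnk1-223. Together these had 4.38 TPM in replicate 1 and 4.42 TPM in replicate 2, or 16.7 ± 0.468% of complete coding Wnk1, and the second quantification gave 21.1 ± 2.52%. Wnk1-218, an annotated fragment of a single exon that spans the whole HSN2 exon, is not in this share and had 3.17 TPM in replicate 1 and 2.51 TPM in replicate 2. Wnk1-201, the annotated transcript that starts between exons 4 and 5, where the kidney-specific kinase-deficient form begins, had 0.11 TPM in replicate 1 and was listed at 0 in replicate 2. It was listed at 0 in both libraries of the second quantification.

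Wnk2-205 led Wnk2 with 58.4 ± 8.75% of the gene, followed by Wnk2-206, a partial coding transcript, at 21.1 ± 1.07%. Wnk3 was led by Wnk3-203, annotated as a processed transcript without coding sequence and 6410 bases long, at 40.5 ± 0.686%. Its main coding transcripts were Wnk3-206, at 32.2 ± 5.13%, and Wnk3-205, at 27.3 ± 5.82%, whose coding lengths differ by 141 bases. Wnk3-206 was the larger of this pair in replicate 1, with 5.98 against 3.86 TPM, and the smaller in replicate 2, with 4.65 against 5.10 TPM. Their order therefore did not hold over the libraries.

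Stk39 and Oxsr1 encode the kinases that WNKs activate and that phosphorylate the cotransporters. Stk39 (SPAK; ENSMUSG00000027030.15, chromosome 2, 68210445 to 68472268, - strand) had 30.75 TPM in replicate 1 and 29.4 TPM in replicate 2, from 1917 and 1865 expected counts. Oxsr1 (OSR1; ENSMUSG00000036737.12, chromosome 9, 119238432 to 119322427, - strand) had 12.36 TPM in replicate 1 and 12.17 TPM in replicate 2, from 1057 and 1084 expected counts. Stk39 was higher than Oxsr1 by 2.45-fold, a log2 ratio of 1.29 ± 0.03 that passed 3 SD, and it made up 71.0 ± 0.428% of their sum.

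The single annotated coding transcript of each led in both tables. Stk39-201 held 63.4 ± 1.97% of Stk39 in the first quantification and 43.7 ± 0.0913% in the second. Stk39-202, a retained-intron transcript, held 32.5 ± 1.25% in the first. Oxsr1-201 held 83.7 ± 0.871% of Oxsr1, and the retained-intron transcript Oxsr1-203 held 14.8 ± 1.22%. The second quantification raised Stk39 by 2.32-fold over the first, against a median of 1.71-fold over 12766 detected protein-coding genes, and part of this sat on Stk39-206, a non-coding transcript with 16.7 ± 0.801% of the gene there and 0 in the first.

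**Figure D3:**
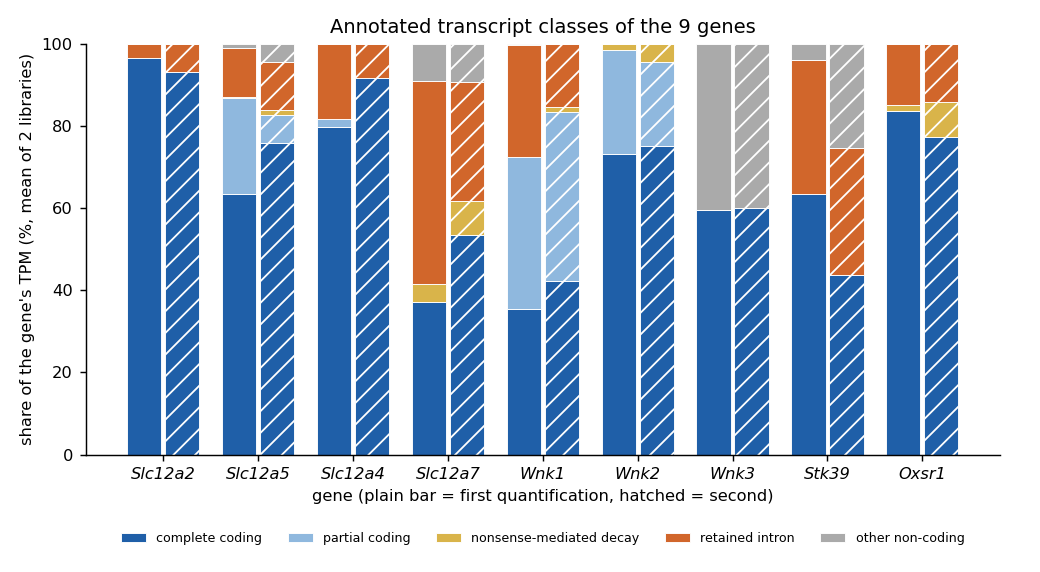
Share of each gene's TPM (%, mean of 2 libraries) on complete coding, partial coding, nonsense-mediated decay, retained-intron and other non-coding transcripts; plain bars are the first and hatched bars the second quantification. Complete coding transcripts hold 96.5% of Slc12a2 but 35.4% of Wnk1 and 37.1% of Slc12a7 in the first quantification. The annotation lists 2 transcripts for Slc12a2, 26 for Wnk1 and 11 for Slc12a7, and the shares depend on which transcripts are listed.

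Ordered by gene TPM, the genes ran from Slc12a5 through Wnk1, Wnk2, Stk39, Wnk3, Slc12a2, Oxsr1 and Slc12a4 to Slc12a7. Neighbours were called apart where every library of the higher gene lay above every library of the lower one and the authors' intervals were separate, and 6 of 8 neighbouring pairs were. On complete coding transcripts alone Wnk3, with 9.84 TPM in replicate 1 and 9.75 TPM in replicate 2, stood below Slc12a2, with 11.44 and 12.54 TPM, and below Oxsr1, with 10.41 and 10.1 TPM, so the call of Wnk3 over Slc12a2 holds for gene TPM only. Slc12a2 and Oxsr1 overlapped, with 11.9 and 12.94 TPM for Slc12a2 against 12.36 and 12.17 TPM for Oxsr1. Oxsr1 and Slc12a4 did not overlap in TPM, but their intervals did. The second quantification kept the order of 7 of the 8 pairs and turned round Wnk2 and Stk39, at 65.1 ± 2.20 TPM for Wnk2 and 69.9 ± 5.43 TPM for Stk39. The leading transcript was the same in both tables for 7 of 9 genes, the exceptions being Slc12a4 and Slc12a7.

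**Figure D4:**
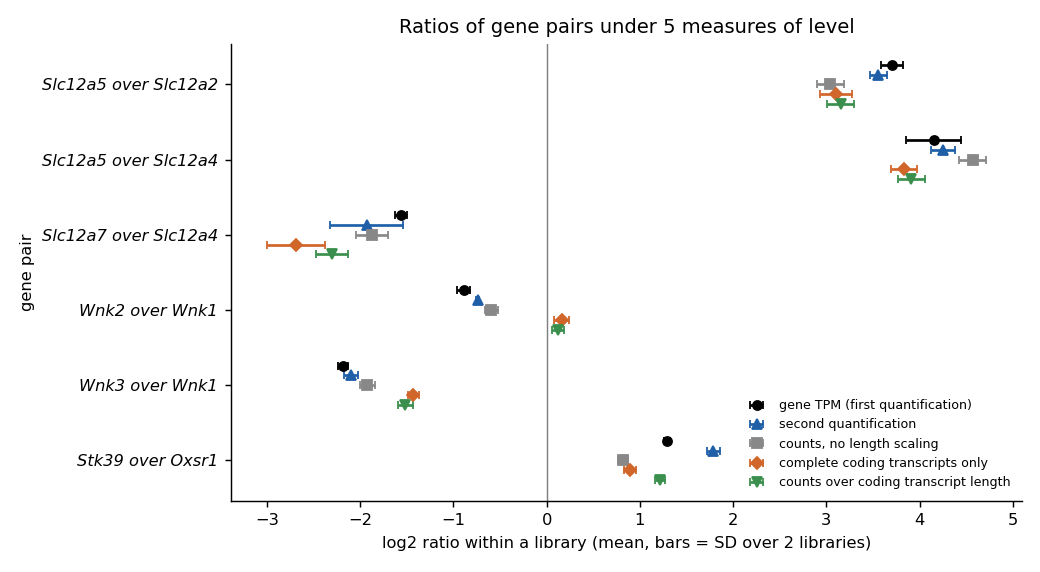
Log2 ratio of each gene pair within a library (points, mean; bars, SD over 2 libraries) under 5 measures of level. Wnk2 over Wnk1 is the pair that changes sign, with -0.89 by gene TPM and 0.16 on complete coding transcripts, and Slc12a5 over Slc12a2 stays between 3.04 and 3.71.

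By counts, no gene of the set differed between the libraries by the folds examined. The log2 ratio of replicate 1 over replicate 2, from expected counts scaled by TMM library sizes, ran from -0.12 for Slc12a4 and Slc12a2 to 0.12 for Slc12a7. At a log2 ratio of 1, 0 of 9 genes were past the threshold, against 0.529% of the 15509 genes tested. At 0.2, the count was again 0 of 9, against 19.8% of all genes (9.41% of all genes were higher in replicate 1 and 10.4% higher in replicate 2). TPM, which also depends on the effective length, lay further apart than counts for the low extruders. Slc12a4 had 8.01 TPM in replicate 1 and 10.38 TPM in replicate 2. Slc12a7 had 2.80 and 3.40 TPM, so it was higher in replicate 2 by TPM and in replicate 1 by counts. Authors' TPM intervals were separate between the libraries for 0 of 9 genes, against 4.38% of all genes. The median log2 ratio was 0.03 over the 9 genes and 0.01 over all genes. One library was compared with one library, so these counts describe the spread and test nothing.

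**Figure D5:**
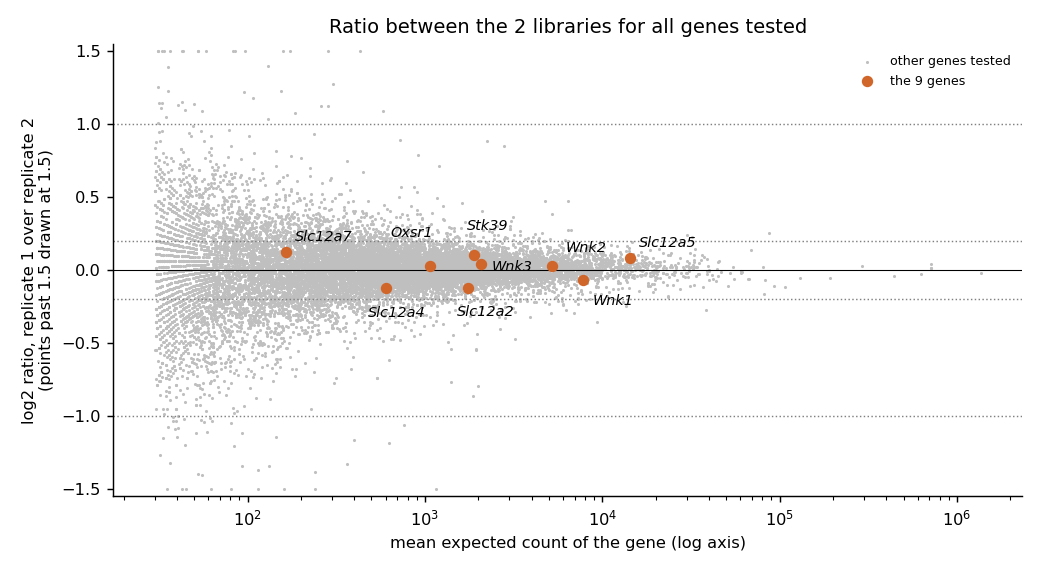
Log2 ratio of replicate 1 over replicate 2 against mean expected count (log axis) for the 15509 genes tested (grey, with points past 1.5 drawn at 1.5) and the 9 genes (orange). All 9 lie inside the dotted lines at 0.2 in size, from -0.12 to 0.12.

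Other genes of the pathway were taken as 4 lists. Among further SLC12 genes, Slc12a9, a more distant relative, was detected at 10.9 ± 0.233 TPM. Slc12a1 and Slc12a3, the NKCC2 and NCC transporters of the kidney, and Slc12a8 were under 1 TPM in both libraries, with Slc12a3 at 0.19 TPM in replicate 1 and 0.41 TPM in replicate 2. All 12 WNK regulators were detected. The highest were Ppp1cb and Ppp1ca, catalytic subunits of protein phosphatase 1, at 158 ± 6.68 and 109 ± 1.73 TPM, and Klhl2, an adaptor that delivers WNK kinases to the CUL3 ubiquitin ligase, at 119 ± 0.516 TPM. Median TPM over this list was 54.5, against 14.6 over detected protein-coding genes. Sgk1, a kinase induced by corticosteroids, was the 1 member past 0.2, at 32.76 TPM in replicate 1 and 40.3 TPM in replicate 2 (log2 ratio -0.44), and is named after its value was seen.

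All 12 listed partners and regulators of KCC2 were detected as well. Ckb, the brain creatine kinase that binds KCC2, had 483 ± 5.39 TPM, Gabbr1, a GABA-B receptor subunit, 285 ± 5.10 TPM, and Epb41l1, the 4.1N protein that links KCC2 to actin, 131 ± 2.16 TPM. Rest, a repressor of neuronal genes with sites in Slc12a5, was the lowest of the 12 at 1.99 TPM in replicate 1 and 1.70 TPM in replicate 2, and was named after its value was seen. Of 18 other chloride and bicarbonate routes, 15 were detected. Slc4a10, a sodium-driven bicarbonate transporter, led at 84.3 ± 4.38 TPM, followed by the carbonic anhydrase Car2 at 56.1 ± 0.276 TPM and the endosomal exchanger Clcn4 at 48.7 ± 2.01 TPM. Cftr and Lrrc8e were under 1 TPM in both libraries. Over the 4 lists, no tested member was past a log2 ratio of 1. Past 0.2 were 1 of 12 regulators, 1 of 12 KCC2 partners and 3 of 16 other routes, against 19.8% of all genes.

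Annotated genes held 29490900 expected counts in replicate 1 and 30691917 in replicate 2, so 3 counts, the limit used for a gene at 0, are 0.102 and 0.0977 CPM, the count as a share of the library on a common scale. The 5 neuronal markers summed to 2493.64 TPM in replicate 1 and 2430.84 TPM in replicate 2, and 5 dentate granule cell markers to 165.79 and 190.92 TPM. No other brain region was compared, so these sums do not test the hippocampal label. Blood markers summed to 225.61 TPM in replicate 1 and 407.71 TPM in replicate 2. Their counts were checked for a repeated deposit of 1 library, and gave a chi-square of 3.78 per degree of freedom over 13336 protein-coding genes. The coefficient of variation between the libraries was 4.86% by edgeR's common dispersion, 1 value for all genes. It was 11.1% by the median over 17782 genes of DESeq2's fitted dispersion, which is a different summary. Annotated genes overlap Wnk1, Wnk3, Slc12a4 and Oxsr1, and no source used here states the strand setting of the counting. The largest, the pseudogene Gm16199 on the strand opposite Wnk1, had 6.81 TPM in replicate 1 and 9.88 TPM in replicate 2.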

How the data were processed

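Per the file headers, the authors deposited gene and transcript tables with expected counts and TPM in the layout of RSEM, and a transcript table with estimated counts and TPM in the layout of kallisto, called the second quantification and summed per gene. A score, the bounds of a TPM interval, is in the deposited tables and is taken as the 95% credibility interval. The assembly is mm10 and the annotation M21, per the labels and the notes deposited with the files. The aligner and counter are not given in the sources used here. Gene and transcript structures came from GENCODE M21. The printed sequences are those of the reference assembly, and the CAST/EiJ alleles of these hybrids were not examined.

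Between libraries, expected counts were rounded, 0.5 was added and TMM factors (edgeR 4.0.16, limma 3.58.1, R 4.3.3) applied, for genes at a mean of 1 CPM or more; 97 spike-in entries, with 0.378% and 0.368% of counts, and 26248 other entries, with 4 and 6.99 counts, stayed out. The coefficient of variation is the root of edgeR's common dispersion at a minimum of 10 counts. Alternatives used DESeq2 1.42.0, other scalings, the second quantification and each library alone. Tested on simulated data, 96.5% of 200 genes shifted by 1.5 (log2) among 15509 were called. Python 3.11.15, numpy 2.4.6, pandas 2.3.3 and biopython 1.88 were used.

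The genes, their pairs and the lists were chosen with earlier results of these data known. Named are all 9 genes, the leading 2 transcripts of each and any other at 10% or more of the gene in both libraries, and from each list the 3 highest genes, those under 1 TPM in both libraries and any past a log2 ratio of 1. Other transcripts and genes named were chosen after their values were seen. Results for some further genes and sequences are not reported here.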

Additional observations from a re-analysis of the deposited data

How the results depend on the processing

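All 6 gene-pair ratios kept their sign in both libraries, in the second quantification, with posterior mean TPM and with counts not scaled by length. On complete coding transcripts and on counts over the length of the longest one, both chosen after seeing the data, 5 of 6 did, and Wnk2 over Wnk1 reversed to 0.16 and 0.12. In that order (second quantification, unscaled counts, complete coding transcripts, counts over coding length), log2 ratios of Slc12a5 over Slc12a2 were 3.56, 3.04, 3.10 and 3.16, and those of Wnk3 over Wnk1 -2.10, -1.92, -1.43 and -1.52, with -2.24 from posterior mean TPM. Slc12a7 over Slc12a4 gave -1.93, -1.87, -2.69 and -2.30, with -1.28 from posterior mean TPM, and Stk39 over Oxsr1 1.79, 0.82, 0.89 and 1.22, with 1.34. Wnk2 over Wnk1 was -0.74 in the second quantification and -0.59 from unscaled counts, and Slc12a5 over Slc12a4 was 4.57 from unscaled counts and 3.83 on complete coding transcripts. The cause of these moves was not tested. With 1 library at a time, the ratios ran from 3.63 to 3.79, 3.94 to 4.36, -1.61 to -1.52, -0.94 to -0.84, -2.22 to -2.15 and 1.27 to 1.31, for the pairs as first listed in the plot of pair ratios.

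The exon 1a share of Slc12a5 moved to 33.5% in the second quantification and 37.5% on complete coding transcripts, with 26.5 to 28.3% over single libraries, and the HSN2 exon share of Wnk1 to 21.1%, with 16.3 to 17.0% over single libraries. The median of DESeq2's fitted dispersion, a different summary from edgeR's common dispersion, gave a coefficient of variation of 11.1%. Counts of detected genes and of genes past a ratio were the same in each alternative run, and 7 or 8 of 9 genes kept 1 leading transcript across tables. With spike-in totals in place of TMM, the median ratio of the 9 genes was -0.02 and that of all genes moved by -0.04. Levels and leading shares of single genes moved by over 1 SD in 28 of the 36 alternatives other than leaving a library out. Leaving a library out by construction moves a mean of 2 by less than 1 SD. Many of the 28 moves follow from scale. Rescaling to nuclear protein-coding genes multiplies every TPM of a library by 1 factor. TPM in the second quantification was a median of 1.71-fold higher over detected protein-coding genes. No paired analysis was possible because there is 1 group. Depth limits Slc12a7 most, at 169 and 162 counts.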

Other observations

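RefSeq promoter windows of 300 bases, matched for 8 of the 9 genes, differed in base composition. The Stk39 window had a GC content of 80.0% and 49 CpG dinucleotides, the Wnk1 window 63.7% and 32, and both Slc12a5 windows 21 CpG each. Wnk3 stood at the other end, with 31.7% GC and 2 CpG, and Wnk2 had 50.7% GC and 5 CpG. The Wnk2 window lies wholly upstream of every start annotated for that gene in GENCODE M21.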
